A study of Mus musculus with 6 samples.

Results

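The subject is the baseline expression of cultured primary mouse vascular smooth muscle cells, given by 4 of the 6 bead arrays of a series on miR-128. The 4 arrays were taken by their titles, as all arrays named shScr2 or shScr1, and are described by expression level. The other 2 arrays, mir128, served as a comparison. The mice were C57BL/6J of 8 weeks, and the labels call the cells primary VSMCs. They were infected with lentivirus, carrying miR-128 for the mir128 group and a scrambled miRNA for the shScr2 and shScr1 groups, kept in puromycin for 2 days, and harvested for total RNA at 5 days. Each group held 2 arrays, lettered A and B. The series calls them biological replicates but does not say whether they came from separate cultures or animals, so the p-values below measure the spread between these arrays. All 4 scrambled arrays thus show infected, drug-selected cells in culture, not vessel wall and not untouched cells, and how shScr2 differed from shScr1 is not given in the sources used here. The vessel the cells were taken from is not given either.

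Vascular smooth muscle cells line the media of arteries, where they contract through smooth muscle actin and myosin, regulated by myosin light chain kinase and calponin. Many genes of this apparatus are controlled by serum response factor with its coactivator myocardin, which act through a DNA motif called the CArG box. In culture or in an injured vessel, the cells are known to lose contractile proteins, divide and secrete matrix, a state usually called synthetic or modulated.

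The array intensities were corrected for background and normalized across all 6 arrays, and levels are given as log2 intensity. A probe was called detected on an array if its deposited detection p-value was under 0.05. A gene was called detected if at least 1 of its probes was detected on all 4 scrambled arrays, and its level is that of its brightest probe. Brightness also depends on the probe's own sequence, so ranks order probe signals, not amounts of transcript. "Not detected" says only that no probe rose above the background. Among 21 widely expressed genes, 18 were detected on all 4 arrays, but the probe of Eef1a1, a translation factor of every cell, was detected on none. Of the 1143 probes for olfactory receptors, which these cells are not known to use, 10 (0.875%) were detected on all 4 arrays, against 42.8% of the other named probes. The scrambled arrays detected 7994 to 8245 genes each. The lowest detected level lay between 4.88 and 4.97, and the median of undetected probes was about 4.42.

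Of 16593 named genes, 7188 (43.3%) were detected on all 4 scrambled arrays and 7224 (43.5%) on none, with 2181 between. The median level was 8.27 over the detected genes and 4.83 over all named genes. Among the detected genes, 895 had a level of up to 6 and 40 had one above 14. The median SD of a detected gene over the 4 arrays was 0.17 on the log2 scale. The 2 shScr2 arrays correlated at 0.992 and the 2 shScr1 arrays at 0.993 across the 7188 genes, against 0.980 to 0.983 between the groups and 0.913 to 0.943 between scrambled and mir128 arrays. These values are across genes, which are not independent replicates.

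The brightest genes were mostly those of protein synthesis, the cytoskeleton and chromatin. Of the 25 brightest, 12 encoded cytosolic ribosomal proteins, led by Rps2, Rplp1 and Rps12, and Eef1g encoded a translation elongation factor. The cytoskeletal genes among them were Actb (cytoplasmic actin), Tuba1b and Tubb5 (tubulins) and Zyx (zyxin, a protein of focal adhesions). Zyx lay at 14.82 and 14.87 on the shScr2 arrays and at 14.87 and 14.80 on the shScr1 arrays, sixth of all genes. The 25 also held the core histone genes H2ac24 and H2ac20, whose near-identical copies a probe may not tell apart. The others were Atp5b (mitochondrial ATP synthase), Mif (a cytokine made by many cells), Hspa8 (a constitutive chaperone), Fth1 (the heavy chain of ferritin) and Ubb-ps, a ubiquitin pseudogene. Bgn, for the matrix proteoglycan biglycan, was the only secreted matrix protein among the 25, with 14.21 and 14.41 on the shScr2 arrays and 14.55 and 14.39 on the shScr1 arrays. Over the 100 brightest genes, 36 were counted as ribosomal protein genes by their symbols, and 6 encoded core histones. The ribosomal count left out Fau, Rpl36al and Rps27l, at ranks 52, 53 and 60. Ccn2 (a matricellular growth factor, also called CTGF) stood at rank 32, Myl6 at 40, Acta2 at 44, and Vim (vimentin) at 100.

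The contractile apparatus was present in part. Of 23 genes with a named probe, 12 (52.2%) were detected on all 4 scrambled arrays, 7 on none and 4 on 1 or 2 arrays, against 43.3% of all named genes detected. Acta2, smooth muscle alpha-actin, lay at 14.31 and 14.33 on the shScr2 arrays and at 13.42 and 13.54 on the shScr1 arrays, among the brightest genes of the cells. All 4 of its probes were detected, and on each the shScr2 arrays lay above the shScr1 arrays. Myl6 (an essential light chain of smooth and non-muscle myosin) had 14.17 and 14.06 on the shScr2 arrays and 14.04 and 14.00 on the shScr1 arrays. Tpm1 (tropomyosin) averaged 12.65 ± 0.19 (SD, n = 4) and Vcl (vinculin, which ties actin to adhesions) 11.57 ± 0.20. These genes of actin filaments and adhesions are also used by many cells that are not smooth muscle.

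Apart from Smtn, the marker genes named next lay below the median of detected genes (8.27) or were undetected, while Acta2 lay far above it. Of the same list, Pdlim7, Csrp1 and Tpm2 also lay above it, at 11.29, 10.58 and 10.09. Smtn (smoothelin) averaged 9.21 ± 0.11, above that median, and Cald1 (caldesmon) 7.19 ± 0.32 (SD, n = 4). Actg2, smooth muscle gamma-actin, had 6.85 and 6.79 on the shScr2 arrays against 5.72 and 5.44 on the shScr1 arrays. Tagln (SM22-alpha), often among the brightest genes of smooth muscle, had only 5.24 and 5.53 on the shScr2 arrays and 4.89 and 5.08 on the shScr1 arrays. All 4 values stood just above the lowest detected level. Myh11, the smooth muscle myosin heavy chain and the most specific of the markers, was detected on none of the 4 arrays. The same held for Cnn1 (calponin), for both probes of Mylk (myosin light chain kinase), and for Mrvi1, Pdlim3, Ppp1r14a and Synpo2. Des (desmin) was detected on 2 arrays, Synm (synemin) by its best probe on 2, and Lmod1 (leiomodin) and Aoc3 on 1. Myl9, Flna and Tpm4 had no named probe and were not analysed here. Measured against its defining markers, the label of vascular smooth muscle therefore rested on Acta2, Smtn, Actg2 and Tagln, while Myh11, Cnn1 and Mylk were not seen. Bulk RNA cannot tell fewer cells with a transcript from less of it per cell.

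**Figure D1:**
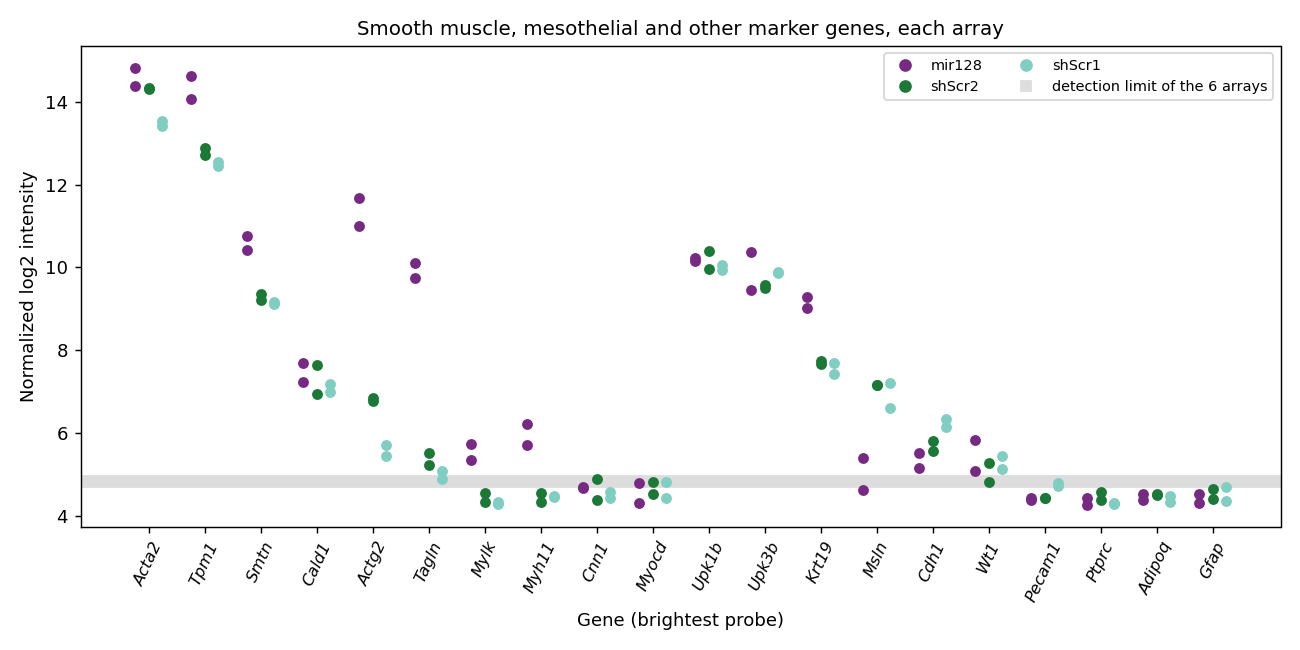
Normalized log2 intensity of 20 marker genes (brightest probe) on each of the 6 arrays, with mir128 left, shScr2 in the middle and shScr1 right, and the range of the arrays' detection limits as a grey band. In the scrambled groups Acta2 lies between 13.42 and 14.33 and Tagln between 4.89 and 5.53, while Mylk, Myh11, Cnn1 and Myocd are undetected; the mesothelial genes Upk1b and Upk3b lie between 9.51 and 10.39.

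The promoters of contractile genes were read to see whether detected and undetected members differ in CArG boxes. The windows are the 250 bases before each gene's start (RefSeq, GRCm38.p6), with a promoter found for 18 of the 23 genes. Tagln, Myh11, Actg2, Fbxo32 and Aoc3 had none and were not searched. A CArG box was found in 2 of the 18 genes (11.1%), Myl6 and Vcl, both detected, and in 482 of all 32851 windows (1.47%). A 10-base stretch that differs from the motif by 1 base lay in 7 of the 18 genes (38.9%) and in 17.5% of all windows. Some genes, such as Myl6, have 2 windows and counted if either held a match, so gene and window shares differ in unit. Counted by gene, a box was held by 1.48% of the 13336 named genes with a window. The share was 1.43% of genes detected on all 4 arrays and 1.36% of genes detected on none. Shown are both genes with a box, Acta2 as the main actin gene of smooth muscle, and Cnn1 as an undetected member with no match. Capitals mark a CArG box in Myl6 and Vcl and a stretch 1 base off in Acta2. Myl6 spans chr10:128493010-128493259 on the minus strand, Vcl chr14:20929148-20929397 on the plus strand, Acta2 chr19:34255374-34255623 on the minus strand and Cnn1 chr9:22099003-22099252 on the plus strand.
Myl6: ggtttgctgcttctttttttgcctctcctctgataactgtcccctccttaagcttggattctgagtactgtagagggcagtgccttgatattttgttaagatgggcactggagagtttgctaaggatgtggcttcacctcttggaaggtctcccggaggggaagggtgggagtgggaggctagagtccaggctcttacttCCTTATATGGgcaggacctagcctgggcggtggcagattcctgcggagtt
Vcl: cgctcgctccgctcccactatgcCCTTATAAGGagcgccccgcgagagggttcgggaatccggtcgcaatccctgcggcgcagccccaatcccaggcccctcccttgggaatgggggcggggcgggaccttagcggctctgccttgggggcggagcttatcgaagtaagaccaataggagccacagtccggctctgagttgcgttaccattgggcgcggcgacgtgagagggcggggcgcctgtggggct
Acta2: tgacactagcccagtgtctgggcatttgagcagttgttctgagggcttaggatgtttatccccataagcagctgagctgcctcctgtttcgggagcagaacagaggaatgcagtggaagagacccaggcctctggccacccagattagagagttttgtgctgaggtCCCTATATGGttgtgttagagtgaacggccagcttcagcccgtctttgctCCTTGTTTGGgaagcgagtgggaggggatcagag
Cnn1: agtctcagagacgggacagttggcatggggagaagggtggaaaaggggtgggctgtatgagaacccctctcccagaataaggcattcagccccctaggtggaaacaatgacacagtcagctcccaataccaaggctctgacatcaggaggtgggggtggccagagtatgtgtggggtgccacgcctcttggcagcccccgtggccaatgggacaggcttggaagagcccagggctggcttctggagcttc
The box of Myl6 begins 50 bases before the start and that of Vcl 227 bases before it, and the stretches in Acta2 begin 84 and 34 bases before its start. A match is a description of letters in this window, and boxes farther away or within introns were not searched.

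Among 24 transcriptional regulators of smooth muscle, 10 (41.7%) were detected on all 4 scrambled arrays and 9 on none. Srf, the factor that binds the CArG box, lay at 9.97 and 9.86 on the shScr2 arrays and at 9.63 and 9.62 on the shScr1 arrays. Its coactivator gene Myocd, which is largely restricted to cardiac and smooth muscle, was undetected on all 4 arrays by each of its 3 probes. The widely expressed coactivators of the same family, Mrtfa and Mrtfb, were detected on 1 array each. Klf4, known to repress contractile genes in modulated smooth muscle, had 9.46 and 9.29 on the shScr2 arrays and 9.86 and 9.73 on the shScr1 arrays, well above the median of detected genes. Gata6, a factor of the vessel wall and other mesoderm, averaged 10.89 ± 0.33, and Prrx1, a mesenchymal homeobox factor, 9.69 ± 0.47 (SD, n = 4). Of the Notch pathway, which helps to maintain arterial smooth muscle, Notch3, Jag1, Hey1, Hey2 and Heyl were detected on no scrambled array, and Rbpj, the pathway's DNA-binding partner, lay at 5.28 ± 0.20. Foxo4, Tcf21 and Tead1 were also undetected.

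Genes for excitation and relaxation were seldom detected, with 4 of 22 (18.2%) on all 4 scrambled arrays and 13 on none. The detected ones serve calcium stores: Atp2a2 (the calcium pump of the endoplasmic reticulum) at 8.76 ± 0.06, Orai1 (a store-operated channel) at 7.95 ± 0.38 and Stim1 (its sensor) at 7.37 ± 0.09 (SD, n = 4). Htr2a, a serotonin receptor, was the other, at 5.14 ± 0.19 and by 1 of 3 probes. The voltage-gated calcium channel genes Cacna1c and Cacnb2, the potassium channel genes Kcnma1, Kcnmb1 and Kcna5, and the angiotensin receptor gene Agtr1a were undetected. So were Prkg1 (the kinase that mediates relaxation by cyclic GMP), Gucy1b1, Pln, Ryr2, Casq2, Npr1 and Ptger4.

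Genes of the synthetic or modulated state were nearly all present. Of 21 with a probe, 18 (85.7%) were detected on all 4 scrambled arrays, with a median level of 9.60 against 4.83 over all named genes. Ccn2 had 14.74 and 14.82 on the shScr2 arrays and 13.74 and 13.72 on the shScr1 arrays. Timp1, an inhibitor of matrix proteases, had 13.90 and 14.03 on the shScr2 arrays and 13.48 and 13.32 on the shScr1 arrays. In both genes the groups did not overlap, but neither passed the limma comparison of these groups over the whole series given below. The adjusted p there was 0.0805 for Ccn2 and 0.505 for Timp1. Vim averaged 13.29 ± 0.06 and Sparc, a matricellular protein that binds collagen, 13.10 ± 0.07 (SD, n = 4). Mgp, an inhibitor of calcification, lay at 10.64 and 10.60 on the shScr2 arrays and at 12.23 and 12.29 on the shScr1 arrays. Postn (periostin) was undetected, and Krt8 and Krt18, keratins seen in some modulated cells, were detected on 1 array each. Spp1, Fn1 and Ly6a had no named probe and were not analysed here.

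**Figure D2:**
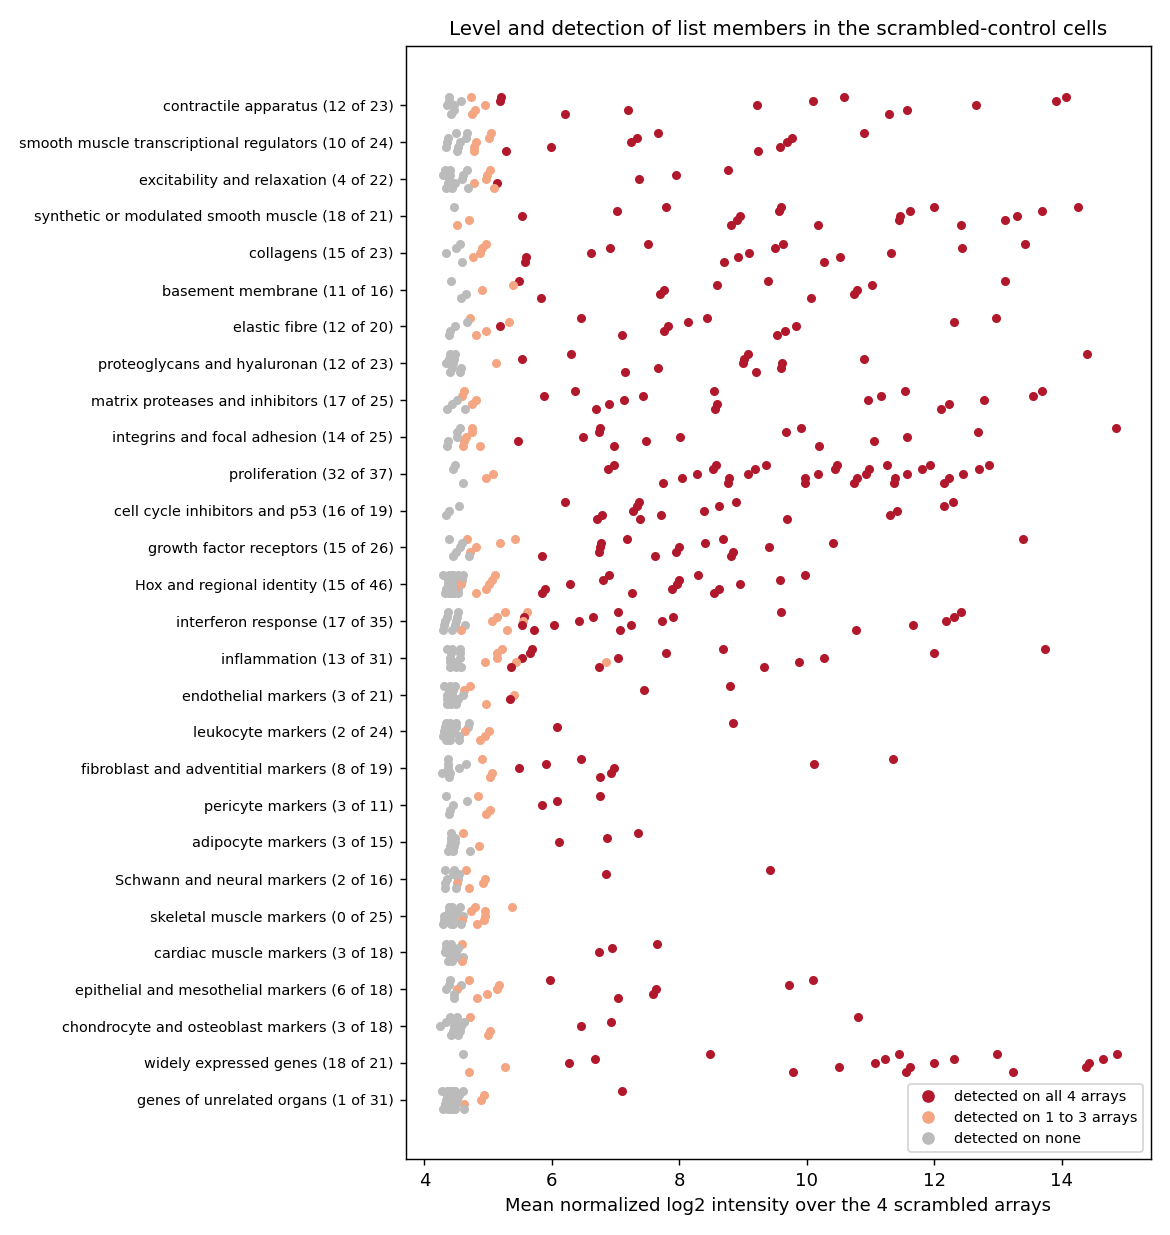
Each point is a gene of the named list, placed by its mean normalized log2 intensity over the 4 scrambled arrays and coloured by the number of arrays that detected it; the counts give members detected on all 4 of those with a probe. Levels compare probe signals. Proliferation (32 of 37) and synthetic genes (18 of 21) lie mostly to the right, and skeletal muscle markers (0 of 25) at the left edge.

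By list, 52.2% to 68.8% of extracellular matrix genes were detected, against 43.3% of all named genes, with the proteoglycan list closest to that share. Each list had undetected members, and elastin stood at the detection limit. Of 23 collagen genes and collagen-modifying enzymes, 15 (65.2%) were detected on all 4 scrambled arrays. The levels were led by P4hb (a subunit of prolyl hydroxylase) at 13.42 ± 0.05 and Col6a1 at 12.44 ± 0.47 (SD, n = 4). Col1a1, the main fibrillar collagen, had 9.95 and 10.19 on the shScr2 arrays and 10.61 and 10.32 on the shScr1 arrays. Col3a1 lay at 6.64 and 6.39 on the shScr2 arrays and at 7.60 and 6.99 on the shScr1 arrays, by 1 of its 2 probes. Col2a1 and Col10a1, the collagens of cartilage, were undetected, as were Col8a2 and Col15a1. Basement membrane genes were detected in 11 of 16 cases (68.8%), with Col4a1 at 11.02 ± 0.23, Nid1 (nidogen) at 10.78 ± 0.32 and Hspg2 (perlecan) at 10.74 ± 0.07. Lama1, Lama4 and Col4a3 were undetected there.

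Of 20 elastic fibre genes, 12 (60.0%) were detected on all 4 scrambled arrays. Lox, which crosslinks elastin and collagen, averaged 12.97 ± 0.22, and Fbln2 (fibulin 2) 12.30 ± 0.09 (SD, n = 4). Eln itself, the protein that gives arteries their recoil, was detected on 1 array, with 4.50 and 4.65 on the shScr2 arrays and 5.21 and 4.86 on the shScr1 arrays. Fbln5, Mfap4, Mfap2 and Fbn2, which help to assemble or scaffold elastic fibres, were undetected, so the crosslinking enzyme was bright while elastin stood at the detection limit. Among 23 proteoglycan and hyaluronan genes, 12 (52.2%) were detected on all 4 arrays and 10 on none. Bgn led them, followed by Prelp at 10.90 ± 0.60. Has1, a hyaluronan synthase, was detected at 7.66 ± 0.29, while Has2, Has3, Lum and Acan were not. Dcn (decorin, a collagen-binding proteoglycan) spread most, with 7.82 and 7.78 on the shScr2 arrays against 10.30 and 10.10 on the shScr1 arrays.

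Matrix proteases and their inhibitors were detected in 17 of 25 cases (68.0%). Timp3, an inhibitor held in the matrix, averaged 13.55 ± 0.16, Mmp14 (a membrane-bound collagenase) 12.77 ± 0.07 and Timp2 12.23 ± 0.24 (SD, n = 4). Mmp13, a secreted collagenase, had 7.84 and 7.97 on the shScr2 arrays against 5.44 and 5.50 on the shScr1 arrays, by 1 of 3 probes. Mmp10, Mmp12, Plat and Ctsl were undetected, and Mmp9 was detected on 1 array. Among 25 integrin and focal adhesion genes, 14 (56.0%) were detected, led by Zyx and by Actn1 (alpha-actinin) at 12.69 ± 0.27. Of the integrin chains, Itgb5 lay at 9.91 ± 0.14, Itgb1 at 8.01 ± 0.23 and Itga5, the fibronectin receptor chain, at 7.47 ± 0.16. Itga7 and Itga9, both known from smooth muscle, were undetected, Itga1 was detected on 1 array, and Itgb3, Itga4 and Itgb8 were undetected.

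Of 26 growth factor receptor genes, 15 (57.7%) were detected on all 4 scrambled arrays. Axl, a receptor tyrosine kinase for the ligand Gas6, was the brightest, with 13.52 and 13.52 on the shScr2 arrays and 13.20 and 13.29 on the shScr1 arrays. Tgfbr2 and Egfr, receptors for transforming growth factor beta and epidermal growth factor, averaged 10.40 ± 0.51 and 9.40 ± 0.15 (SD, n = 4). Pdgfrb, the receptor through which PDGF drives smooth muscle to divide and migrate, was dim, with 5.96 and 5.44 on the shScr2 arrays and 6.02 and 5.98 on the shScr1 arrays. Pdgfra lay at 6.49 and 6.56 on the shScr2 arrays and at 6.95 and 7.03 on the shScr1 arrays. Fgfr2, Fgfr3, Fgfr4, Insr, Acvrl1 and Bmpr2 were undetected. Ntrk3, the neurotrophin-3 receptor, was detected on both shScr1 arrays and on neither shScr2 array.

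The cells carried the transcripts of dividing cells. Of 37 proliferation genes, 32 (86.5%) were detected on all 4 scrambled arrays, with a median level of 9.98. Ccnd1, for the cyclin of early G1, lay at 12.74 and 12.86 on the shScr2 arrays and at 13.00 and 12.83 on the shScr1 arrays. Cenpa (the histone of centromeres) averaged 12.70 ± 0.15 and the replication helicase subunits Mcm5 and Mcm4 12.45 ± 0.08 and 12.23 ± 0.11 (SD, n = 4). Of the mitotic genes, Birc5 (survivin) had 11.93 ± 0.14, Cdk1 11.58 ± 0.21 by 1 of 3 probes, and Top2a (a topoisomerase made in S phase and mitosis) 9.97 ± 0.07. Bub1, Ccnb2 and Cenpe were undetected, Ccna2 (cyclin A2) was detected on both shScr2 arrays only, and Cdk6 on 2 arrays, 1 in each group. Mki67, Ccnb1 and Aurkb had no named probe. The groups overlapped for Ccnd1 and Mcm5.

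Brakes of the cell cycle were detected as broadly, in 16 of 19 cases (84.2%). Mdm2, a target and inhibitor of p53, averaged 12.30 ± 0.03, and Ccng1, another p53 target, 12.16 ± 0.14 (SD, n = 4). Cdkn1a (the inhibitor p21) lay at 11.41 and 11.46 on the shScr2 arrays and at 11.24 and 11.10 on the shScr1 arrays. Cdkn2a, the locus of p16 and p19ARF, had 8.73 and 8.79 on the shScr2 arrays and 9.08 and 8.97 on the shScr1 arrays. Which of its products the probe reads was not tested. Lmnb1 (lamin B1), whose loss is a known sign of senescence, stood at 11.40 ± 0.10. Cdkn1c (the inhibitor p57), Rbl2 and Btg2 were undetected.

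**Figure D3:**
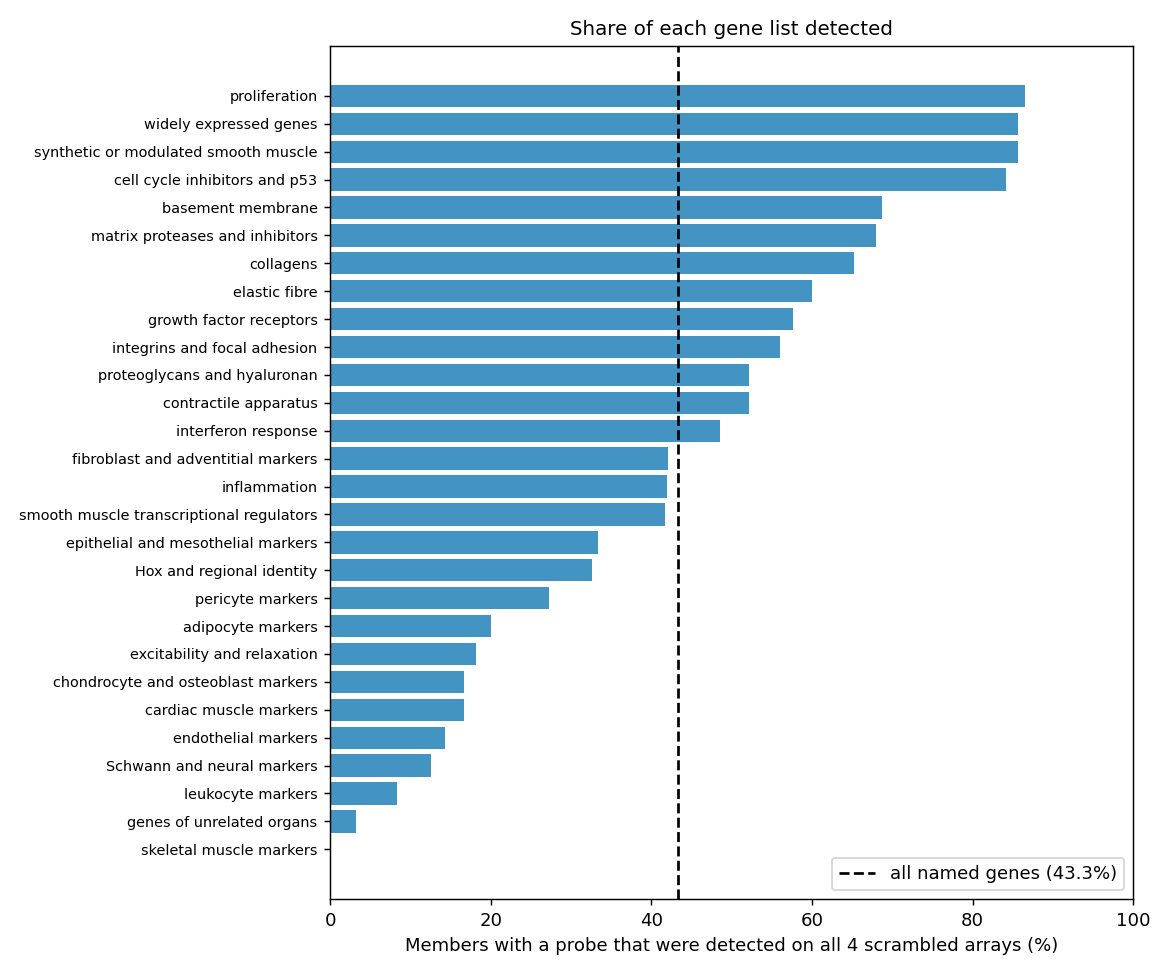
Share of each gene list detected on all 4 scrambled arrays (bars, in percent of members with a probe), with the share over all named genes (43.3%) as a dashed line. Proliferation (86.5%), synthetic (85.7%) and cell cycle inhibitor genes (84.2%) stand beside the widely expressed genes (85.7%). Every list of another cell type lies below the line, the fibroblast list (42.1%) close to it. The smooth muscle regulators (41.7%) and the excitability and relaxation genes (18.2%) lie below it too.

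Hox genes, which record the position of a cell along the body axis, were detected in 13 of 38 cases, and the wider list of regional factors in 15 of 46 (32.6%). The detected ones belonged to the A and B clusters, with 7 of 10 Hoxb genes and 5 of 10 Hoxa genes, against 1 of 9 Hoxc genes and 0 of 9 Hoxd genes. Hoxa7 had 9.83 and 9.78 on the shScr2 arrays and 10.19 and 10.06 on the shScr1 arrays. Hoxb7 lay at 9.66 and 9.83 on the shScr2 arrays and at 9.29 and 9.55 on the shScr1 arrays. Hoxb2, Hoxb3, Hoxb4, Hoxb5, Hoxb6 and Hoxb7 were detected as an unbroken run, between 5.89 ± 0.17 for Hoxb3 and 9.58 ± 0.22 for Hoxb7 (SD, n = 4), and Hoxb9 beyond the undetected Hoxb8. Of the genes at the far ends of the clusters, Hoxa13 was detected by 1 of 3 probes at 5.84 ± 0.36, while Hoxb13, Hoxd12 and Hoxd13 were not. Foxc1 and Foxc2, forkhead factors of vessel-forming mesoderm, averaged 8.29 ± 0.41 and 6.90 ± 0.51. Hand1, Hand2, Meox1, Meox2 and Tbx20 were undetected.

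**Figure D4:**
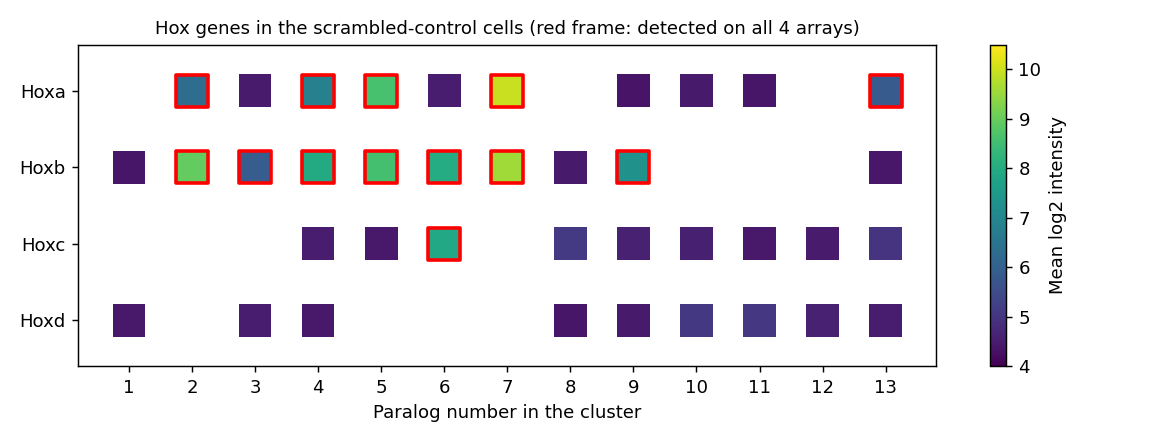
Mean normalized log2 intensity over the 4 scrambled arrays of each Hox gene with a probe, by cluster (rows) and paralog number (columns); a red frame marks detection on all 4 arrays, and an empty place has no named probe here or no gene. The frames cover paralogs 2 to 7 and 9 of Hoxb, and none of Hoxd.

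Interferon-response genes were detected in 17 of 35 cases (48.6%). Ifitm3 and Ifitm2 (membrane proteins that block virus entry) averaged 12.41 ± 0.61 and 12.18 ± 0.45, and B2m (the light chain of MHC class I) 12.31 ± 0.03 (SD, n = 4). Isg15, a ubiquitin-like protein induced by interferon, had 6.16 and 5.99 on the shScr2 arrays against 8.05 and 7.93 on the shScr1 arrays. Usp18, the protease that removes it, had 5.94 and 5.10 on the shScr2 arrays against 7.62 and 7.94 on the shScr1 arrays. In the limma comparison over all 6 arrays given below, the adjusted p was 0.404 for Isg15 and 0.214 for Usp18. Oasl2, Rsad2 and Oas2, antiviral effectors, were detected on both shScr1 arrays and on neither shScr2 array. Ifnb1, Mx1, Mx2, Ifih1, Irf7, Ifit1, Oas1a and Oas3 were detected on no scrambled array.

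Of 31 inflammation genes, 13 (41.9%) were detected on all 4 scrambled arrays. Cxcl12, the chemokine that retains progenitor cells, averaged 13.74 ± 0.26, and Vcam1, an adhesion molecule for leukocytes, 11.99 ± 0.10 (SD, n = 4). Cxcl1 had 10.27 ± 0.29 and Csf1, the growth factor of macrophages, 9.88 ± 0.45. Tnf, Il1a, Il1b and Nos2 were undetected. Il33, an alarmin of stromal cells, was near the detection limit on the shScr2 arrays at 5.11 and 4.65, against 8.92 and 8.70 on the shScr1 arrays. Ptgs2 (cyclooxygenase 2) was detected on both shScr2 arrays and no shScr1 array, and Cxcl10 on both shScr1 arrays and no shScr2 array.

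Defining markers of endothelium and of leukocytes were mostly undetected. Endothelial markers were detected in 3 of 21 cases (14.3%), with Egfl7 at 8.79 ± 0.14, Flt1 at 7.45 ± 0.50 by 1 of 2 probes, and Kdr at 5.34 ± 0.28 (SD, n = 4). Pecam1, Cdh5, Vwf, Tie1 and Emcn, which define endothelium, were detected on none of the 4 arrays. Leukocyte markers were detected in 2 of 24 cases (8.33%). These were Cd14, a receptor for bacterial lipopolysaccharide, at 8.84 ± 0.27, and the lysozyme gene Lyz1 at 6.07 ± 0.17 by 1 of 3 probes, which may also read its near-identical neighbour Lyz2. Ptprc (CD45), Adgre1, Itgam, Tyrobp and Cd8a were undetected.

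Fibroblast and adventitial markers were detected in 8 of 19 cases (42.1%), close to the share of all named genes. Thy1, a surface protein of many stromal cells, lay at 11.40 and 11.31 on the shScr2 arrays and at 11.36 and 11.36 on the shScr1 arrays. S100a4 averaged 10.11 ± 0.43, and Pi16 and Cd34 were lower at 6.97 ± 0.46 and 5.90 ± 0.36 (SD, n = 4). Lum, Fap, Dpp4, Tcf21, Gli1, Gsn, Islr and Dpep1 were undetected. Pericyte markers were detected in 3 of 11 cases (27.3%), namely Cspg4, Rgs5 and Pdgfrb, the brightest of them Cspg4 (the proteoglycan NG2) at 6.75 ± 0.28. Rgs5, also a gene of arterial smooth muscle, had 5.22 and 5.91 on the shScr2 arrays against 6.61 and 6.56 on the shScr1 arrays. Higd1b, Vtn, Anpep, Cox4i2 and Notch3 were undetected.

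Adipocyte markers were detected in 3 of 15 cases (20.0%). Lpl (lipoprotein lipase) had 6.52 and 6.57 on the shScr2 arrays against 8.15 and 8.18 on the shScr1 arrays, while Adipoq, Fabp4, Plin1 and Cidec were undetected. Schwann and neural markers were detected in 2 of 16 cases (12.5%), Pmp22 at 9.42 ± 0.21 and Mbp at 6.85 ± 0.05 by 1 of 3 probes (SD, n = 4), with Gfap, S100b and Foxd3 undetected. Of 25 skeletal muscle markers 0 were detected on all 4 arrays. Acta1 (skeletal alpha-actin) had 6.32 and 6.41 on the shScr2 arrays, against 4.39 and 4.36 on the shScr1 arrays, where it was not detected, and Myod1 was detected on 1 array. Cardiac markers were detected in 3 of 18 cases (16.7%): Myl4, Tnnc1 and Nppb. Nppb (the natriuretic peptide BNP) had 8.02 and 7.81 on the shScr2 arrays against 5.71 and 5.43 on the shScr1 arrays, while Myh6, Myh7, Tnni3 and Nkx2-5 were undetected. Chondrocyte and osteoblast markers were detected in 3 of 18 cases (16.7%), with Bmp4 at 10.79 ± 0.74, Sox5 at 6.92 ± 0.75 and Sox9 at 6.45 ± 0.77. Sp7, Bglap, Col2a1, Acan and Bmp2 were undetected. Of 31 genes of unrelated organs 1 (3.23%) was detected, Cela1 at 7.10 ± 0.29, while Alb and Ins2 were not.

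Markers of mesothelium, the epithelial sheet that covers the outside of organs and lines body cavities, were present in part, the brightest of them above the median level of detected genes. Of 18 epithelial and mesothelial markers, 6 (33.3%) were detected on all 4 scrambled arrays. Upk3b, a uroplakin used as a mesothelial marker, had 9.51 and 9.57 on the shScr2 arrays and 9.87 and 9.90 on the shScr1 arrays, and all 3 of its probes were detected. Upk1b, of the same family of membrane proteins, had 10.39 and 9.95 on the shScr2 arrays and 10.07 and 9.94 on the shScr1 arrays, by 1 of 2 probes. Msln (mesothelin) lay at 7.17 and 7.17 on the shScr2 arrays and at 6.60 and 7.22 on the shScr1 arrays. Krt19, a keratin of simple epithelia, averaged 7.63 ± 0.14, Krt14 7.58 ± 0.70 and Cdh1 (E-cadherin) 5.97 ± 0.35 (SD, n = 4).

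Not all mesothelial markers were detected on all 4 arrays. Wt1, a transcription factor of mesothelium, was detected on 3 of the 4 arrays, at 5.29 and 4.82 in shScr2 and 5.46 and 5.15 in shScr1. The keratins Krt8, Krt18 and Krt7 were detected on 1 array each, and Lrrn4, Grhl2, Esrp1, Krt5, Cldn3 and Cldn4 on none. A few more genes known from mesothelium were looked up after these values had been seen. Bnc1 (basonuclin 1) had 8.73 and 9.02 on the shScr2 arrays and 9.58 and 9.86 on the shScr1 arrays. Gpm6a had 6.71 and 6.20 on the shScr2 arrays and 7.60 and 7.23 on the shScr1 arrays, by 1 of 3 probes. Rspo1 was undetected. The number of list members detected per array was 9 and 8 in shScr2 and 9 and 9 in shScr1, so the signal was not limited to 1 library. Whether these transcripts came from other cells in the culture or from the same cells was not tested.

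The groups shScr2 and shScr1 were compared to see which of these levels depended on the control group. With the spread estimated over all 6 arrays, limma called 8 of 9010 genes tested at an adjusted p under 0.05 (0.0888%), 2 higher in shScr2 (0.0222%) and 6 lower (0.0666%), and 1046 had an unadjusted p under 0.05. Higher were Parm1 (log2 difference 2.05 ± 0.16 SE, adjusted p = 0.0135) and Lims2, a focal adhesion adaptor (1.85 ± 0.15 SE, adjusted p = 0.0145). Lower were Gdf10, Fmo1, Bace2, Egr2 and the list members Dcn and Ntrk3. Dcn differed by −2.40 ± 0.19 (SE, adjusted p = 0.0135), which is larger than the gap between replicates of either group. Fmo1 was not detected in shScr2 and was at least 6.59-fold lower there (adjusted p = 0.0135). Ntrk3, at least 2.64-fold lower, was detected on no array outside shScr1 and so entered the test only through that group. Without any 1 of the 4 scrambled arrays limma called 0 genes, with 517 to 610 at an unadjusted p under 0.05. With the replicate letter added to the fit as a block, limma called 1 gene, 0 higher and 1 lower. Parm1, Lims2 and Dcn were then no longer called. Genes outside the lists are named here after their values were seen.

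The mir128 replicates differed from each other more than the scrambled ones, with a correlation of 0.967. With the 4 scrambled arrays alone, 237 genes were called (2.63%), 95 higher in shScr2 (1.05%) and 142 lower (1.58%), and they included all 8. Of 373 list genes tested, 41 passed there, 13 higher and 28 lower. Among the higher were Acta2, by 0.84 ± 0.12 (SE, adjusted p = 0.0390), and Actg2 by 1.24 ± 0.14 (adjusted p = 0.0298). Ccn2, Ccn1 and Thbs1, secreted matricellular proteins, were higher by 1.05, 0.90 and 1.03 on the log2 scale, and Mmp13, Nppb and Tnc by 2.44, 2.35 and 1.43. With all 6 arrays the adjusted p of Acta2 was 0.169 and that of Actg2 0.143. It was 0.0805 for Ccn2, 0.107 for Tnc and 0.275 for Mmp13. Of the list genes, only Dcn and Ntrk3 passed with all 6 arrays.

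The lower genes included 8 of 24 interferon-response genes tested, with 0 higher. They were Isg15 (−1.91 ± 0.13 SE, adjusted p = 0.00924), Usp18 (−2.27 ± 0.30), Oasl2, Rsad2, Irf9, Ifit3, Ifitm3 and Oas2, and the median difference over the 24 was −0.49, against 0.01 over all genes tested. With all 6 arrays the adjusted p of Isg15 was 0.404 and that of Usp18 0.214. Matrix genes lower in shScr2 were Dcn, Ogn, Prelp and Fmod among 14 proteoglycan genes, though Fmod was detected on neither shScr2 array. Also lower were Col6a1 and Col6a2 among 20 collagen genes, and Mgp (−1.64 ± 0.11 SE, adjusted p = 0.00924). With all 6 arrays the adjusted p was 0.157 for Mgp, 0.143 for Col6a1 and 0.0664 for Col6a2. Il33 also passed with the 4 scrambled arrays alone, but 1 of its shScr2 arrays was not above background. Sox9, Sox5 and Bmp4 differed by −1.34, −1.29 and −1.27. No proliferation, Hox, integrin or cell cycle inhibitor gene passed in either fit, and 2 of 18 contractile genes did with the 4 arrays alone. Of all genes tested, 0.0888% passed with all 6 arrays and 2.63% with the 4 alone. Lists of 16 to 34 tested genes without a call are therefore not set apart from other genes.

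**Figure D5:**
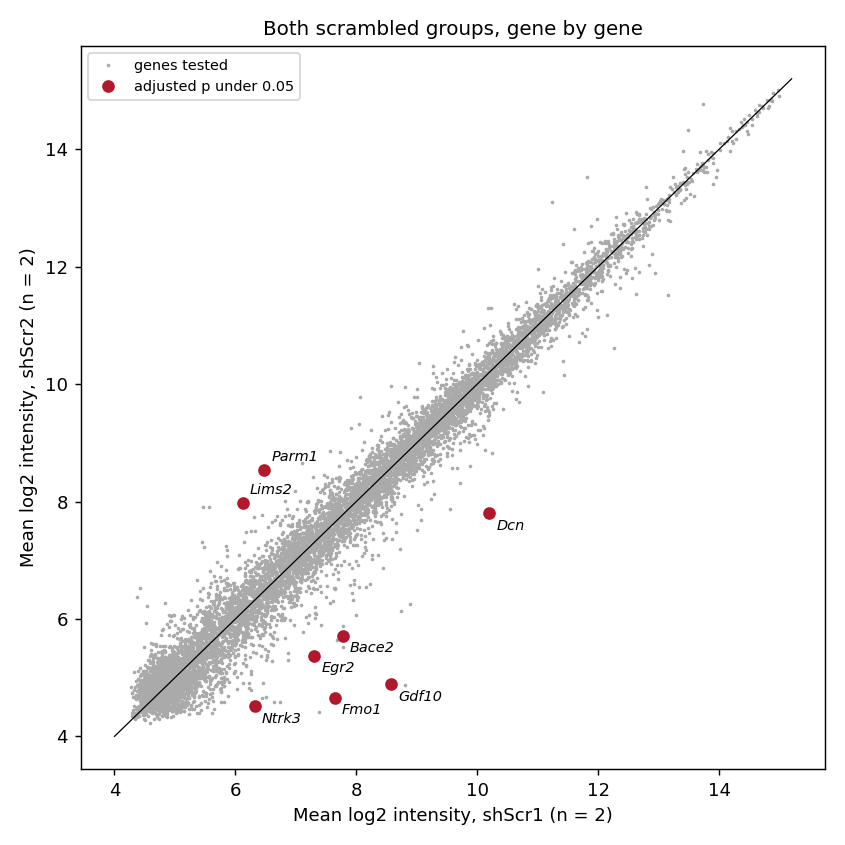
Mean normalized log2 intensity of 9010 genes in shScr2 (vertical axis, n = 2) and shScr1 (horizontal axis, n = 2), with the line of equality. The 8 genes with an adjusted p under 0.05 in the fit over all 6 arrays are drawn large: Parm1 and Lims2 above the line, and Dcn, Gdf10, Fmo1, Bace2, Egr2 and Ntrk3 below it.

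The mir128 arrays show which genes undetected in the scrambled cells were detected elsewhere in the series. Between mir128 and the scrambled groups 29.6% of genes tested were called, 15.8% higher and 13.7% lower, so many members of any list would be among them. Of all named genes, 236 (1.42%) were undetected on all 4 scrambled arrays and detected on both mir128 arrays, and 19 showed the opposite. Since these genes were taken for that pattern, and entered the fit only through the mir128 arrays, their levels are a description with no test. Among contractile genes they were Mrvi1, Myh11 and Mylk. Myh11 had 5.71 and 6.22 on the mir128 arrays, at least 2.06-fold above the scrambled groups. Mrvi1 was at least 4.60-fold and Mylk at least 1.55-fold above them, where the bound sets the mir128 mean against the lowest detected level. Cnn1 and Myocd stayed dim, Cnn1 undetected on both mir128 arrays at 4.69 and 4.69, and Myocd detected on 1 mir128 array by 2 of its probes.

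The cardiac genes Myl7 and Nppa showed the same pattern, at least 2.49-fold and 2.27-fold above the scrambled groups. The bounds were at least 1.68-fold for Jag1 (a Notch ligand), 1.64-fold for Mx2 (an antiviral GTPase) and 1.86-fold for the photoreceptor gene Gnat1. Col15a1, Gpc3, Laptm5 and Il34 lay closer to the detection limit, with bounds between 1.01-fold and 1.22-fold. Notch3, Bmpr2, Npr1, Lama4 and Coro1a were also detected on both mir128 arrays and on no scrambled array. The bounds were only 1.05-fold for Notch3 and 1.04-fold for Bmpr2. For Npr1 and Lama4 they were 0.954 and 0.932, so their mir128 means lay below the lowest detected level of the scrambled arrays. The mir128 arrays detected 9091 and 8523 genes, against 7994 to 8245 on the scrambled arrays, and their lowest detected levels were 4.70 and 4.82. The part of that difference in these detections was not tested.

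Among the mesothelial and epithelial markers detected in scrambled cells, the levels in mir128 went both ways. Msln had 5.41 and 4.64 on the mir128 arrays, the first of them detected, and differed by −2.02 ± 0.27 (SE, adjusted p = 0.00352) against the scrambled groups, and Cdh1 by −0.63 ± 0.17 (adjusted p = 0.0343). Krt19 had 9.02 and 9.28 and was higher by 1.52 ± 0.16 (SE, adjusted p = 0.00183). Upk3b had 9.46 and 10.37 in mir128, with a difference of 0.20 ± 0.25 (adjusted p = 0.591), and its groups overlapped. Hoxa5 had 7.95 and 7.74 in mir128 against 8.24 to 8.96 in the scrambled groups (adjusted p = 0.0118). Of 20 Hox and regional genes tested 4 were higher and 3 lower, near the 15.8% and 13.7% of all genes tested.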

How the data were processed

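RNA of 6 samples was hybridised to Illumina mouse bead arrays. The authors deposited linear intensity values with a detection p-value for each of 25697 probes, per the file headers. A second deposited table held the authors' processed values on a log2-like scale, made in a way that is not given in the sources used here (scale and centring unknown, column medians about 7.77). It was used only as an alternative: after centring each probe, every array correlated best with its own column (0.929 to 0.966 over 10139 probes, at most 0.766 with others). Tools listed in the submitters' processing notes are lumi, limma and GenomeStudio 2011.1. Of the probes, 23978 carried 1 gene symbol, 1719 none and 0 several, and 23962 were matched by Entrez number. No other per-sample column was left unused (0 columns).

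Intensities were processed with neqc in limma 3.58.1 (R 4.3.3): background fitted from the detection p-values, offset 16, log2, quantile normalization over 6 arrays. Median intensities were 103.4 to 116.7 on the scrambled arrays and the number of arrays limits precision. For tests, named probes detected on at least 2 of 6 arrays were kept, the brightest per gene, giving 9010 genes. A model with 3 group means was fitted with lmFit and eBayes (residual df 3, prior df 3.62), two-sided, Benjamini-Hochberg adjusted over all genes. Bounds on folds of undetected genes use the lowest detected level. CArG boxes were searched on RefSeq promoters.

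Genes named were the 25 brightest, up to 4 of the brightest detected members of each list, undetected or partly detected members, genes fixed by name, list members called between shScr2 and shScr1, those undetected in scrambled cells but detected on both mir128 arrays, and the brightest genes detected in only 1 scrambled group. Further list members called between the scrambled groups or illustrating a list were named after their values were seen. The members and lists were chosen with earlier results of these data known. The alternatives were other background corrections, normalizations, filters, probe rules, replicate block and left-out arrays. Slides are not given in the files used, so no slide block was run.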

Additional observations from a re-analysis of the deposited data

Results flagged for a closer look

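Each value of the 4 scrambled arrays was checked for an array standing apart, taking the gap of the outermost array to its neighbour over the whole range of the 4. Of 153 values checked, 7 were past the limit for 4 samples, where chance gives about 1 in 20. The median raw intensity had a ratio of 0.877, with shScr2 replicate B at 103.4 and the others between 115.1 and 116.7. The median level of the proteoglycan and hyaluronan list, set by Vcan (versican), had 0.881, with shScr2 replicate A at 4.93 and the others between 5.69 and 5.79. The level of Rps2 had a ratio of 1, because 3 arrays tied at 15.01 after quantile normalization and shScr1 replicate A had 14.95. H2ac20 had 0.886, with shScr2 replicate A at 14.62 and the others between 14.82 and 14.84. Pdgfrb had 0.899, with shScr2 replicate B at 5.44 and the others between 5.96 and 6.02. Top2a had 0.836, with shScr2 replicate A at 9.86 and the others between 9.99 and 10.01. Stim1 had 0.883, with shScr1 replicate A at 7.51 and the others between 7.30 and 7.33.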

How the results depend on the processing

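The count of all genes detected and the makeup of the 25 brightest genes stayed within 1.5 times under every alternative run. Levels of named genes, taken as percentiles, moved by more than their SD in 61 cases with the mean over a gene's detected probes, in 1 to 3 cases without single scrambled arrays, and in 1 with a common median. Of the list counts, 13 moved by over 1.5 times; with detection p under 0.01 pericyte markers fell to 1, and with every probe required interferon genes came to 11. The call of shScr2 against shScr1 was the least stable result. It gave 29 genes without background correction (8 higher, 21 lower), 4 with arrays scaled to a common median (0 higher), 19 with the authors' processed values (5 higher, 14 lower), and 237 with the 4 scrambled arrays alone (95 higher, 142 lower). Leaving out 1 array gave 0 to 237 genes (0 to 95 higher, 0 to 142 lower): limma called 0 without any 1 scrambled array, with 517 to 610 genes at an unadjusted p under 0.05, and 237 without either mir128 array, since the lone mir128 array then adds nothing to the estimate of spread. With the replicate letter as a block the count was 1 (0 higher, 1 lower), and Dcn was no longer called. Deviations of same-lettered arrays correlated at 0.122 to 0.152, but with 2 letters the samples share only a letter. For mir128 against scrambled, leaving out 1 array gave 1252 to 3497 genes (708 to 1812 higher, 544 to 1685 lower), and the replicate block 2671. Scaling to a common median gave 1552 higher and 568 lower against 1427 and 1238, and moved the median of all genes by 0.195. The cause was not tested. The slide as a block was not run, and dim genes such as Tagln rest on signals near background.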

Other observations

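Of 16593 named genes, 113 were detected on both shScr2 arrays and no shScr1 array, and 124 the other way round. Most of them lay near the detection limit, and both sets held olfactory receptor genes, such as Olfr965 and Olfr270. The brightest of the first kind were S100a7a, Rgs16 (a regulator of G protein signalling), Acta1, Ahrr (the repressor of the aryl hydrocarbon receptor) and Lman1l. S100a7a had 6.29 and 6.75 on the shScr2 arrays against 4.47 and 4.38 on the shScr1 arrays. The brightest of the second kind were Fmo1 (a flavin monooxygenase), Cxcl15 (a chemokine), 6430548M08Rik, Oasl2 and Scin (an actin-severing protein). Cxcl15 had 4.44 and 4.40 on the shScr2 arrays against 7.28 and 7.47 on the shScr1 arrays. Between the groups 158 to 201 of the 7188 detected genes differed by over 2-fold in a pair of arrays, against 30 between the 2 shScr2 arrays and 4 between the 2 shScr1 arrays.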
